A study of Mus musculus with 7 samples.

Results

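The 39 genes described here build and run skeletal muscle: sarcomere proteins of fast and slow fibres, myosins of developing and extraocular muscle, the calcium release machinery, and enzymes that supply ATP to contraction. They were taken as a list of named genes and followed in RNA from mouse RPE, short for retinal pigment epithelium, whose pigmented cells nourish the photoreceptors. All 39 had a probe set annotated to exactly 1 symbol, out of 19938 genes measured. Each of 7 RNA samples went onto 1 whole-transcript array, 4 of them wild type and 3 Mfrp rd6, all on the C57Bl/6J background. In Mfrp rd6 mice the recessive rd6 allele of the RPE membrane protein gene Mfrp leads to retinal degeneration. Values are log2 signals, so that a difference of 1 is a doubling. Eyecups without cornea and lens were shaken in a preservative until the RPE came off, and what came off was spun down, so tissue attached to the eyecup can be carried along. The age field gives 8 weeks for every wild-type sample and 12 weeks for every Mfrp rd6 sample, which would leave age and genotype impossible to tell apart. The growth protocol instead gives 12 weeks for Mfrp rd6 replicate 1 alone. The labels do not say whether the replicates were separate animals, so the p-values weigh differences against a spread among samples that may be technical.

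Skeletal muscle contracts when calcium, released from the sarcoplasmic reticulum, binds troponin C on the thin filament and frees actin for the myosin heads. Fast and slow fibres use different genes for the same parts: separate myosin heavy and light chains, troponins and calcium stores. The extraocular muscles, which insert on the outside of the eyeball, contain very fast fibres, and are known for keeping developmental myosins and for a heavy chain of their own, Myh13. The RPE is an epithelium and is not known to build sarcomeres. The mean of 10 RPE markers lay between 11.08 and 11.20 in wild type and between 11.06 and 11.12 in Mfrp rd6. Among them Best1 was dim, at 5.73 to 6.02 over all arrays. A list of surface epithelium genes had a higher mean, 11.75 to 11.95 in wild type and 11.56 to 11.68 in Mfrp rd6.

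Fast-fibre genes and genes used by all fibre types were higher in Mfrp rd6, while most slow-fibre genes and the myosins Myh8 and Myh13 hardly differed. Many of the latter were dim. A mean of at least 6 was reached by 3 of 8 slow genes and by 0 of 3 extraocular and developmental myosins. All 14 fast genes reached it, and array medians lay between 6.52 and 6.58. This mean was taken over all 7 arrays, so high Mfrp rd6 values helped some genes reach it. In wild type alone, the fast genes Myh1, Mylpf and Myoz1 averaged 5.605, 5.9975 and 5.94, and the slow gene Mybpc1 5.93. For dim genes, a lack of change and a lack of detectable signal cannot be told apart. Of the 39 genes, 6 rose and 0 fell (limma, adjusted p under 0.05 over all genes), against 1.34% of all genes called higher, 0.813% called lower and 2.15% called either way. The 6 were the fast genes Myh4, Pvalb, Atp2a1 and Casq1, and Ttn and Myot, which all fibre types use. The change was positive in 37 of 39 genes, as in 43.3% of all genes, and at least 1 log2 unit in 16, as in 0.537% of all genes. The median change was 0.82, against -0.02 over all genes. At an unadjusted p under 0.05, 29 genes were higher (5.98% of all genes). The 6 calls depended on single arrays. None was made without wild-type replicate 1, 2 or 4, where 0.858%, 0.888% and 0.918% of all genes were called higher, or without Mfrp rd6 replicate 1 or 2 (0.762% and 0.818%). In these fits 28, 29, 27, 26 and 24 members were higher at an unadjusted p under 0.05, against 5.91%, 5.58%, 5.07%, 5.82% and 5.05% of all genes. Without wild-type replicate 3 there were 18 calls among the members, against 1.17% of all genes, and 30 at an unadjusted p under 0.05 (6.37%). Without Mfrp rd6 replicate 3 there were 16 calls, against 1.18%, and 29 at an unadjusted p under 0.05 (5.15%). In all bulk values here, fewer cells of a type and less RNA per cell cannot be told apart.

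**Figure D1:**
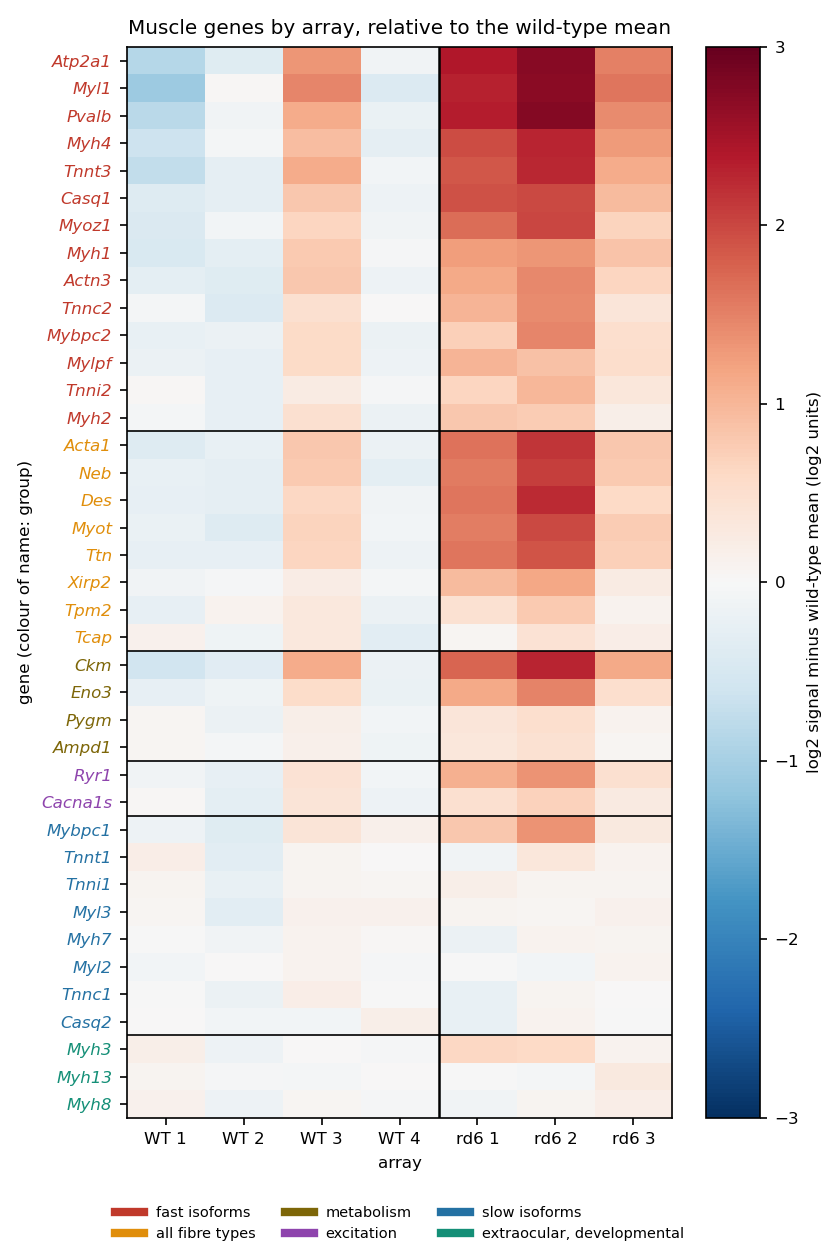
Log2 signal of each of the 39 muscle genes (rows, ordered by group and by change) on each of the 7 arrays (columns), minus the gene's wild-type mean; red is higher and blue lower, in log2 units. Most fast, all-fibre and metabolism genes are red on the 3 Mfrp rd6 arrays and also on wild-type replicate 3. Among them Tcap, Tpm2, Pygm and Ampd1 are pale on some of these arrays. The slow and extraocular rows at the bottom stay pale apart from Mybpc1 and Myh3.

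The largest single differences were those of fast-fibre genes, although the median of the genes used by all fibre types was higher. Of 14 fast genes measured, 4 rose, 0 fell and 10 did not pass, with changes from 0.57 to 2.21 and a median of 1.29. Every Mfrp rd6 array lay above every wild-type array in 9 of the 14, as in 5.52% of all genes, while 9.82% of all genes were separated in the lower direction.

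Atp2a1 encodes SERCA1, the pump that returns calcium to the sarcoplasmic reticulum of fast fibres. It read 7.78, 8.27, 9.94 and 8.52 on wild-type replicates 1 to 4, and 11.04, 11.35 and 10.13 on Mfrp rd6 replicates 1 to 3. The groups did not overlap, but wild-type replicate 3 came within 0.19 of Mfrp rd6 replicate 3. From 8.63 ± 0.93 (SD, n = 4) to 10.84 ± 0.63 (SD, n = 3), Atp2a1 rose 4.63-fold, a log2 change of 2.21 (SE 0.46, limma adjusted p = 0.0422), which ranked 21 among the changes of all genes. Pvalb encodes parvalbumin, the soluble calcium buffer that speeds relaxation of fast fibres, and is also expressed by some retinal neurons. Its signals were 6.41, 7.11, 8.31 and 7.0 in wild type and 9.56, 9.96 and 8.63 in Mfrp rd6. Again wild-type replicate 3 stood above the rest of its group and Mfrp rd6 replicate 3 below the rest of its own. Pvalb rose by 2.18 (SE 0.42, limma adjusted p = 0.0316).

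Myh4 encodes the myosin heavy chain of the fastest limb fibres, type IIb. It read 7.02, 7.58, 8.56 and 7.37 in wild type and 9.59, 9.92 and 8.91 in Mfrp rd6. The gap of 0.35 between the lowest Mfrp rd6 and the highest wild-type array was the widest among the 39 genes. Myh4 rose 3.58-fold, from 7.63 ± 0.66 to 9.47 ± 0.52 (log2 change 1.84, SE 0.34, limma adjusted p = 0.0258). Casq1, the calcium-binding protein that stores calcium in the reticulum of fast fibres, read 6.32, 6.43, 7.51 and 6.54 in wild type and 8.62, 8.67 and 7.64 in Mfrp rd6. It rose by 1.61 (SE 0.32, limma adjusted p = 0.033), with a gap of 0.13 between the groups.

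Among the fast genes that did not pass, Myl1, an essential myosin light chain, had the largest difference. Its wild-type signals were 7.07, 8.20, 9.61 and 7.74, and its Mfrp rd6 signals 10.47, 10.86 and 9.77. The difference of 2.21 nearly equalled that of Atp2a1, but the wild-type SD of 1.08 was the widest of the 39 genes (limma adjusted p = 0.06). The fast troponin T gene Tnnt3 read 1.75 higher in Mfrp rd6 (adjusted p = 0.0607) and Myoz1, a Z-disc protein that binds calcineurin, 1.44 higher (adjusted p = 0.0536). Myh1, the heavy chain of type IIx fibres, read 1.15 higher and Actn3, the Z-disc actinin of fast fibres, 1.08 higher. The remaining fast genes differed by less than 1: Tnnc2 (fast troponin C) by 0.93, Mybpc2 (fast myosin-binding protein C) by 0.89, Mylpf (fast regulatory light chain) by 0.81, Tnni2 (fast troponin I) by 0.66 and Myh2 (type IIa heavy chain) by 0.57. Their adjusted p values lay between 0.0703 and 0.198.

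To show the DNA in front of genes that differed in their change, the 250 bases before the RefSeq start are given for Myl1, Atp2a1 and Ckm, which had large differences, and for Myh4, Myh8 and Myh13, neighbours in 1 myosin cluster. Sequences are from RefSeq, build GRCm38.p6, written 5′ to 3′ on the gene's strand, with a match to any of the motifs named after them in capitals.
Myl1 (chr1:66945057-66945306, minus strand): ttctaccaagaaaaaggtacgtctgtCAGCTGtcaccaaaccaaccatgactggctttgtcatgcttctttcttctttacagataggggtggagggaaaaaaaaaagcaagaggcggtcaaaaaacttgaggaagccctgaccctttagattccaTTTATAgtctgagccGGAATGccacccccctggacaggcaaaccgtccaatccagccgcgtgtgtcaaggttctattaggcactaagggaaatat
Atp2a1 (chr7:126463074-126463323, minus strand): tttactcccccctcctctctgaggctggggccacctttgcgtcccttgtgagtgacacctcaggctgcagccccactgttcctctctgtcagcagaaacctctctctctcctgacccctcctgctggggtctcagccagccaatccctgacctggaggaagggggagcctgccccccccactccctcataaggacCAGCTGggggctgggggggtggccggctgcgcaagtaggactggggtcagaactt
Ckm (chr7:19410844-19411093, plus strand): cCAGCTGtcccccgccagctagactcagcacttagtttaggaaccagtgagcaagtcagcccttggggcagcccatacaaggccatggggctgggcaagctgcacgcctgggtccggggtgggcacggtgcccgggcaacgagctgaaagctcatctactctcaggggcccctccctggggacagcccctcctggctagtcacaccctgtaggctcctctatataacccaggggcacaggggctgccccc
Myh4 (chr11:67237562-67237811, plus strand): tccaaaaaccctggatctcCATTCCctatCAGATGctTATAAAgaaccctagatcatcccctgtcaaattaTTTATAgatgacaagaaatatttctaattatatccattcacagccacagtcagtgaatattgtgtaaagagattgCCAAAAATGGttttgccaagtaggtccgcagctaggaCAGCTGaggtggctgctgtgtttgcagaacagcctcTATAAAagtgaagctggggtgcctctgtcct
Myh8 (chr11:67276874-67277123, plus strand): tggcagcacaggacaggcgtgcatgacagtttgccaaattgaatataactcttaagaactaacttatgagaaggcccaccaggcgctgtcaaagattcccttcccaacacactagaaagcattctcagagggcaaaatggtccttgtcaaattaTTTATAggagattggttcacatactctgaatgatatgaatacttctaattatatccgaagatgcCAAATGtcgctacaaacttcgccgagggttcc
Myh13 (chr11:67326853-67327102, plus strand): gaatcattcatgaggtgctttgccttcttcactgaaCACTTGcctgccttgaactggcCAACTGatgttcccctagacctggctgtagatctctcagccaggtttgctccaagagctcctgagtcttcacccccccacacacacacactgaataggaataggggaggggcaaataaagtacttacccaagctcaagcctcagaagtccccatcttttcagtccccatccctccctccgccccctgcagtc
The motifs were the E-box CANNTG, to which MyoD-type factors bind, its version CAGCTG, the MEF2-type letters CTA and TAG with any 4 bases between them, the CArG box of serum response factor, the MCAT letters CATTCC of TEAD factors, and TATAAA. Both strands were searched, every CAGCTG is also an E-box, and overlapping matches share capitals. Of the 39 genes, 31 were matched in the table, with 35 windows; Neb, Tnnt3, Tnni2, Myoz1, Actn3, Ampd1, Myot and Tcap had no entry. CAGCTG was found in 15 of the 35 windows, against 13% of all 32851 windows, and CANNTG in 31 of 35, against 66.2%. MCAT letters were found in 10 windows (12.6% of all), TATAAA in 8 (12.4%), the CArG box in 3 (1.47%) and the MEF2-type letters in 2 (3.2%). CAGCTG was present before 7 of the 11 genes in the table with a change of at least 1, and before 3 of the 11 slow, extraocular and developmental genes. By fibre type it stood before 5 of 10 fast genes and 3 of 8 slow genes. Myh1, Pvalb, Ttn and Eno3 differed by at least 1 without it, and the slow genes Tnni1, Myl2 and Mybpc1 have it. The group with a change of at least 1 was picked from these data, and a link between letters and change was not tested. In the sequences shown, Myl1, Atp2a1, Ckm and Myh4 each have 1 CAGCTG, while the E-boxes before Myh8 and Myh13 have other inner letters. A match describes letters in this window only.

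The heavy-chain genes lie side by side on chromosome 11 in the order Myh3, Myh2, Myh1, Myh4, Myh8, Myh13, and their changes differed along the row: 0.43, 0.57, 1.15, 1.84, 0.06 and 0.07. These coding sequences are closely related, so signal may be shared between their probe sets, and the split between neighbours is uncertain. Myh13, the heavy chain particular to extraocular muscle, read 5.68, 5.56, 5.54 and 5.62 in wild type and 5.58, 5.53 and 5.89 in Mfrp rd6. Its highest value came from Mfrp rd6 replicate 3, where the fast genes were lowest within that group, and the groups overlapped. The Myh13 difference of 0.07 had a 95% confidence interval of -0.15 to 0.28 (limma adjusted p = 0.813).

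Myh8, the perinatal heavy chain, read 5.79 to 6.05 in wild type and 5.82 to 6.14 in Mfrp rd6, a difference of 0.06 (95% confidence interval -0.15 to 0.27). Both differences changed sign without Mfrp rd6 replicate 3, to -0.05 for Myh13 and -0.01 for Myh8. Myh3, the embryonic heavy chain, read 5.32, 4.98, 5.16 and 5.11 in wild type and 5.76, 5.73 and 5.24 in Mfrp rd6. Replicates 1 and 2 of Mfrp rd6 were above all wild-type arrays and replicate 3 was among them (difference 0.43, limma adjusted p = 0.154). Without Mfrp rd6 replicate 3 the Myh3 difference was 0.60 and passed (adjusted p = 0.026). Of these 3 genes, 0 passed in either direction (limma), and 1 had an unadjusted p under 0.05. Their mean was 5.44 to 5.68 in wild type and 5.72 to 5.76 in Mfrp rd6, without overlap, and its difference of 0.19 came mostly from Myh3.

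Slow-fibre genes differed little, with Mybpc1 as the exception, but most were dim. Over all 7 arrays only Tnni1, Myh7 and Mybpc1 had a mean of at least 6, and Mybpc1 averaged 5.93 in wild type. Of 8 measured, 0 rose and 0 fell, 1 had an unadjusted p under 0.05, and the median change was 0.05. Tnnc1, Myh7, Myl2, Myl3 and Casq2 are shared with heart muscle. Myh7, the slow heavy chain, read 6.71, 6.62, 6.84 and 6.76 in wild type and 6.56, 6.84 and 6.82 in Mfrp rd6. The groups overlapped fully, and the difference of 0.01 had a 95% confidence interval of -0.19 to 0.21, which lies wholly below the interval of 1.08 to 2.60 for Myh4. Differences were 0.00 for the slow regulatory light chain Myl2, 0.08 for the slow essential light chain Myl3, and -0.04 for both the slow troponin C gene Tnnc1 and the calcium store Casq2. Troponins T (Tnnt1) and I (Tnni1) of slow fibres differed by 0.12 and 0.11. The signs of Myh7, Myl2, Myl3, Tnnc1 and Casq2 turned in at least 1 alternative fit each.

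Mybpc1, the slow-type myosin-binding protein C, which fast fibres also express, read 5.77, 5.56, 6.32 and 6.08 in wild type and 6.75, 7.28 and 6.22 in Mfrp rd6. Mfrp rd6 replicates 1 and 2 were above every wild-type array, and replicate 3 was just below wild-type replicate 3. The Mybpc1 difference was 0.82 (limma adjusted p = 0.142), and it did not pass in any of 16 alternative fits.

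**Figure D2:**
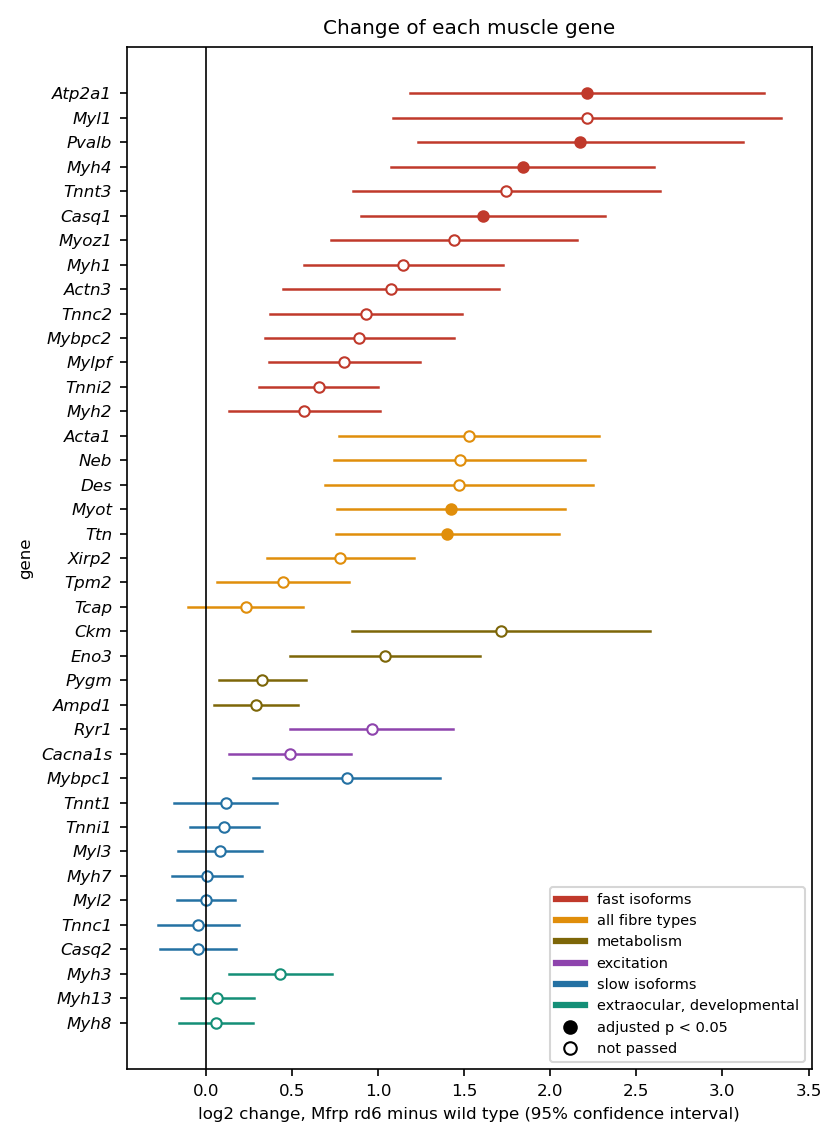
Log2 change of each gene, Mfrp rd6 minus wild type (horizontal axis, points), with its 95% confidence interval from limma (lines); filled points passed the adjusted p of 0.05. Fast genes reach from 0.57 to 2.21, whereas 7 of the 8 slow genes and the extraocular and perinatal myosins have intervals that include 0.

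Genes that all fibre types use were higher by about as much as the fast genes. Of 8 measured, 2 rose, 0 fell and 6 did not pass, with a median change of 1.41. Ttn encodes titin, the elastic filament that spans the sarcomere from Z disc to M line. It read 6.03, 6.02, 6.91 and 6.11 in wild type and 7.87, 8.16 and 6.98 in Mfrp rd6, a rise of 1.40 (SE 0.29, limma adjusted p = 0.0417) with 0.07 between the groups. Myot, a Z-disc protein, rose from 5.89 ± 0.46 to 7.31 ± 0.61 (log2 change 1.42, limma adjusted p = 0.0421). The wild-type values of Myot were 5.69, 5.51, 6.55 and 5.81, and the Mfrp rd6 values 7.42, 7.86 and 6.66.

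Acta1, the actin of skeletal thin filaments, had a larger difference that did not pass. Its wild-type signals were 7.79, 7.94, 8.97 and 7.99, and its Mfrp rd6 signals 9.81, 10.32 and 8.97, so that replicate 3 of either group gave the same value. The Acta1 difference was 1.53 (SE 0.34, limma adjusted p = 0.0536). Neb, the thin-filament ruler nebulin, behaved alike, with 6.97 on replicate 3 of both groups and a difference of 1.47 (adjusted p = 0.0534). The intermediate filament gene Des, also expressed in smooth muscle, read 1.47 higher (adjusted p = 0.0695) and had the largest spread within Mfrp rd6 (SD 0.83). Xirp2, an actin-binding protein, read 0.78 higher, the tropomyosin Tpm2, shared with smooth muscle, 0.45 higher, and the titin cap Tcap 0.23 higher, with adjusted p from 0.0787 to 0.517.

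Of 2 excitation genes and 4 metabolic enzymes 0 passed (limma), although all 6 were higher at an unadjusted p under 0.05. Ryr1, the calcium release channel of the reticulum, read 6.16, 6.01, 6.70 and 6.18 in wild type and 7.33, 7.61 and 6.74 in Mfrp rd6. Its groups were apart by 0.04, and the difference of 0.96 narrowly missed the threshold (limma adjusted p = 0.0515). Cacna1s, the voltage sensor that opens this channel, read 0.49 higher (adjusted p = 0.177). Ckm, the creatine kinase that regenerates ATP in muscle, read 7.65, 7.88, 9.33 and 8.04 in wild type and 9.97, 10.50 and 9.35 in Mfrp rd6. Wild-type replicate 3 was 0.02 below Mfrp rd6 replicate 3, and the Ckm difference was 1.72 (SE 0.38, limma adjusted p = 0.0571). The muscle enolase Eno3 read 1.04 higher, the glycogen phosphorylase Pygm 0.33 higher and the AMP deaminase Ampd1 0.29 higher, with adjusted p from 0.0695 to 0.232.

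**Figure D3:**
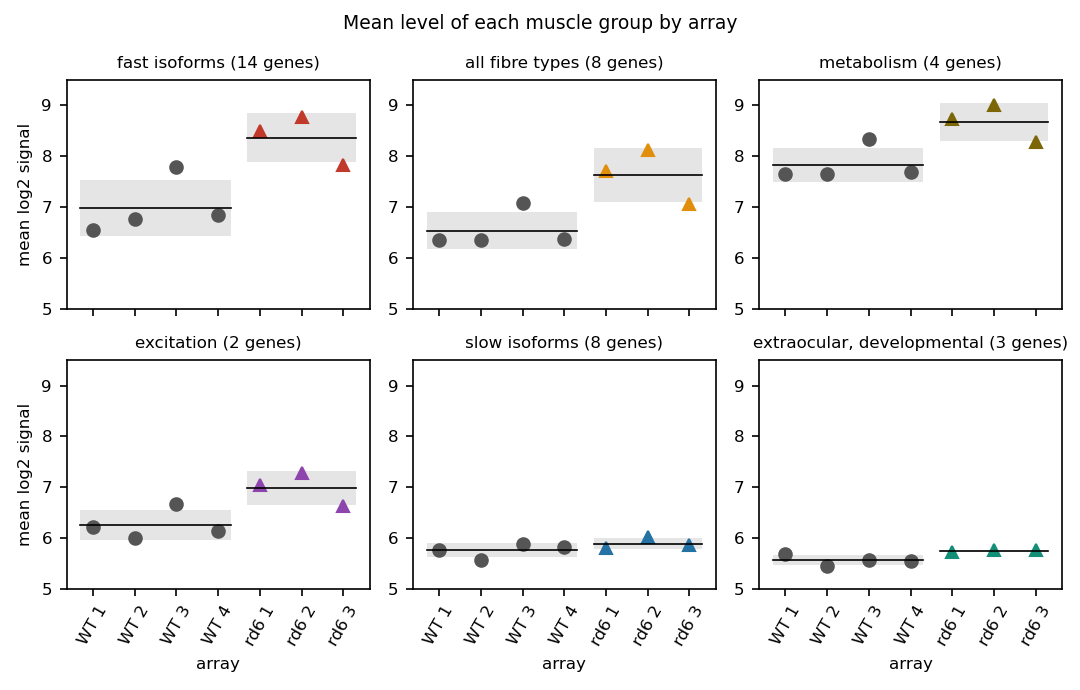
Mean log2 signal of each muscle group (vertical axis) on each array (horizontal axis), with circles for wild type and triangles for Mfrp rd6; lines are group means and grey bands 1 SD (n = 4 and 3). In the fast panel wild-type replicate 3 (7.79) stands beside Mfrp rd6 replicate 3 (7.84), and in the slow panel all arrays lie between 5.56 and 6.01.

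The genes varied within each genotype as well as between them, and the same arrays stood out. Wild-type replicate 3 was the highest wild-type array in 33 of 39 genes, as in 32.3% of all genes, and in all 14 fast genes. Mfrp rd6 replicate 3 was the lowest of its group in 29 genes, as in 31.8% of all genes, and also in all 14 fast genes. Mfrp rd6 replicate 2 was the highest of all 7 arrays in 28 genes, as in 10.9% of all genes. The mean of the 14 fast genes was 6.55, 6.76, 7.79 and 6.84 in wild type and 8.49, 8.77 and 7.84 in Mfrp rd6. In the fast mean, wild-type replicate 3 was thus closer to Mfrp rd6 replicate 3 than to any array of its own group.

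Replicate 3 of Mfrp rd6 minus replicate 3 of wild type had a median of 0.00 over the 39 genes, with a range from -0.31 (Myh2) to 0.35 (Myh4 and Myh13). With wild-type replicate 3 set aside, every Mfrp rd6 array was above the other 3 wild-type arrays in 27 genes, as in 8.44% of all genes. Wild-type replicate 3 exceeded the mean of the other 3 by a median of 1.06 in the fast genes, 0.14 in the slow genes and 0.04 over all genes. The largest excess was 1.94 for Myl1, and in Casq2 and Myh13 this array was lower (-0.11 and -0.08).

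Within Mfrp rd6, replicate 2 exceeded replicate 3 by a median of 1.02 in the fast genes and 1.19 in the genes of all fibre types, but by 0.05 in the slow genes. The difference was 1.64 for Des, 1.22 for Atp2a1 and -0.36 for Myh13. These comparisons within wild type and within Mfrp rd6 have no array in common. Across the 39 genes their sizes correlated with Pearson's r = 0.76 and Spearman's rho = 0.80, against r = 0.06 over all 19938 genes. The arrays compared were chosen after the values of these genes were seen, so the correlation is a description and not a test. The points share the arrays' normalization, and genes are not independent replicates.

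**Figure D4:**
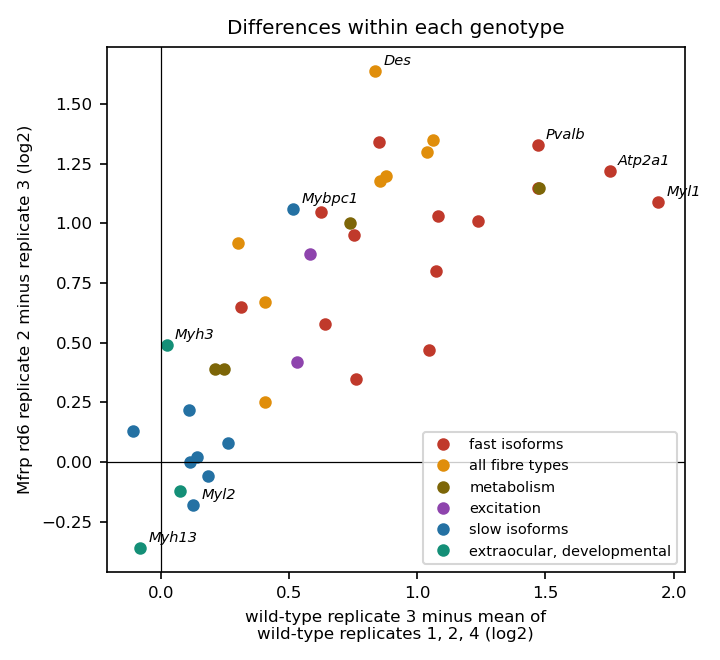
Each point is 1 of the 39 genes, coloured by group: horizontally its excess on wild-type replicate 3 over the mean of wild-type replicates 1, 2 and 4, vertically Mfrp rd6 replicate 2 minus replicate 3, both in log2 units. Fast and all-fibre genes lie at the upper right, with Myl1 at 1.94 and 1.09, and most slow genes near 0 on both axes. Mybpc1 lies at 0.52 and 1.06, Myh3 at 0.02 and 0.49, and Myh13 at -0.08 and -0.36.

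A wider set of 67 measured muscle genes outside the 39 gave 5 that rose and 0 that fell, with a median change of 0.19. Beside this count and those of the lists that follow, 1.34% of all genes were called higher and 0.813% lower. Among other sarcomere genes, 1 of 24 rose, 0 fell and the median was 0.22: Smpx, a small protein of the sarcomere's periphery, rose by 1.04 (limma adjusted p = 0.0286). With wild-type replicate 3 left out Smpx passed (1.23, adjusted p = 0.00234), but with any other single array left out it did not (0.91 to 1.11, adjusted p of 0.0619 to 0.103). Of 16 other excitation genes, 0 rose and 0 fell. Their brightest members, the calcium channel subunit Cacnb1 and the junctional protein Jph1, read 0.18 and 0.30 higher. The list's median was 0.13, and larger differences, named after their values were seen, were those of Trdn (triadin, which anchors calsequestrin), 0.90 higher, Srl, 0.69 higher, and Sypl2, 0.46 higher. Their adjusted p were 0.0697, 0.0712 and 0.168, and the groups of Trdn and Sypl2 did not overlap. Trdn had 19 probe sets annotated to exactly 1 symbol, and only that with the highest mean is given here.

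Of 12 other metabolic genes 3 rose and 0 fell, with a median of 0.40. Cox8b, a subunit of cytochrome oxidase in muscle and brown fat, read 11.33, 11.31, 11.82 and 11.40 in wild type and 12.63, 12.59 and 12.61 in Mfrp rd6. Unlike the fast genes it was level across the Mfrp rd6 arrays, which were separated from wild type by 0.77. Cox8b rose by 1.15 (SE 0.12, limma adjusted p = 0.00112) and passed in all 17 alternative fits. The related subunit Cox6a2 rose by 1.16 (limma adjusted p = 0.0318) and the muscle phosphoglycerate mutase Pgam2 by 1.00 (adjusted p = 0.0298). Neither passed without wild-type replicate 1, 2 or 4 or Mfrp rd6 replicate 1 or 2, with 0.94 to 1.19 for Cox6a2 (adjusted p of 0.0759 to 0.0997) and 0.85 to 0.98 for Pgam2 (adjusted p of 0.0744 to 0.109).

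Of 6 measured further genes known from extraocular or developing muscle 0 rose and 0 fell. The brightest were the cardiac actin Actc1, 1.06 higher (adjusted p = 0.145), and the embryonic light chain Myl4, 0.43 higher (adjusted p = 0.122). The list's median was 0.03, and the other genes lay lower or near 0: the heavy chains Myh6 and Myh7b both at -0.16, the acetylcholine receptor subunit Chrng at -0.06 and the cardiac troponin T gene Tnnt2 at 0.11. Myh6 read lower on every Mfrp rd6 array than on any wild-type array (unadjusted p = 0.0336, limma adjusted p = 0.271). Of 9 genes of muscle formation 1 rose and 0 fell, with a median of 0.08. That gene was Mef2c, a transcription factor of muscle that other cells such as microglia also express, which rose by 0.73 (limma adjusted p = 0.0162). Mef2c missed the threshold when wild-type replicate 1 was left out (0.69, adjusted p = 0.055) and likewise for Mfrp rd6 replicate 1 (0.74, 0.0576) and replicate 2 (0.62, 0.0595).

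Markers of other cells moved with the muscle genes only in part. Of 10 smooth muscle genes 0 rose and 0 fell: the list mean was 6.99 to 7.30 in wild type and 7.13 to 7.24 in Mfrp rd6, and its brightest gene Acta2 differed by -0.04. In the parentheses that follow, the range of the list mean is given for wild type and then for Mfrp rd6. The 8 cardiac genes held 0 called genes (5.85 to 6.10 and 5.79 to 5.97), and the brightest, Myl7, differed by -0.25. Of 5 adipocyte genes 0 passed (5.13 to 5.32 and 5.05 to 5.34), with Plin1 at 0.11, and of 5 Schwann cell and myelin genes 0 passed (8.72 to 8.88 and 8.74 to 8.88), with Pmp22 at -0.05. Of 9 fibroblast and tendon genes 0 rose and 1 fell (7.06 to 7.30 and 6.80 to 7.08): the proteoglycan Dcn fell by 0.92 on the log2 scale (limma adjusted p = 0.014). Leaving out replicate 1 or 2 of Mfrp rd6 ended the call of Dcn, at -0.93 (adjusted p = 0.0532) and -0.81 (adjusted p = 0.055). In 4 of these 9 genes every Mfrp rd6 array lay below every wild-type array, as in 9.82% of all genes. Beside Dcn they were Pdgfra, Col1a1 and Col1a2, at -0.40, -0.23 and -0.21, which did not pass. The difference was positive in 2 of the 9.

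Microglia and macrophage markers were separated between the groups: 9 of 10 rose and 0 fell, and their mean was 6.99 to 7.12 in wild type and 8.72 to 9.37 in Mfrp rd6. Tyrobp and C1qc rose most, by 3.18 and 3.11 (limma adjusted p = 8.63e-06 and 1.56e-05). On wild-type replicate 3, where the muscle genes were high, this mean was 7.12 and thus near the rest of wild type. Of 8 endothelial genes 2 rose and 0 fell (6.79 to 7.28 and 7.38 to 7.78), Plvap by 0.57 and Tek by 0.55 (limma adjusted p = 0.0458 and 0.0389). Plvap passed without wild-type replicate 4 only, and Tek likewise, among the fits that left out 1 array (adjusted p up to 0.144 and 0.118). The part of these cells in the muscle result was not tested.

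The 9 measured rod genes held 0 called genes, with a mean of 7.45 to 8.80 in wild type and 7.22 to 7.64 in Mfrp rd6, and Gnat1, the brightest, differed by -0.67. The highest rod mean, 8.80, came from wild-type replicate 3, the wild-type array with the highest muscle mean. The 7 lens genes also held 0 called genes (5.86 to 6.13 and 5.89 to 7.75), and the brightest, Crybb2, read 0.41 higher. The crystallins Cryaa, Cryba1 and Crygs, named here after their values were seen, were high on Mfrp rd6 replicate 2, the array with the most muscle signal: Cryaa read 9.75 there against 5.69 to 6.15 elsewhere, Cryba1 8.27 and Crygs 8.11. The other lens genes did not all share this: Crybb2 read 8.46 there, above all other arrays, but Mip read 5.88, below wild-type replicate 3, Bfsp1 6.82, the value of wild-type replicate 1, and Lim2 6.99, below every wild-type array. Without that array the median change of the 39 muscle genes was 0.61 and 36 were positive. Of 6 measured surface epithelium genes 0 passed (11.75 to 11.95 and 11.56 to 11.68), with the brightest, Krt5, at 0.01. Krt5 alone had a positive difference: Krt12 read -0.77 and Dsp -0.23, both below wild type on every Mfrp rd6 array, and Krt14, Krt13 and Krt4 read -0.14, -0.13 and -0.05. Of the RPE markers 0 rose and 1 fell, Lrat by 0.40 on the log2 scale (limma adjusted p = 0.0277), which among the fits that left out 1 array passed only without wild-type replicate 1. Whether the rod, lens or RPE shares have a part in the muscle result was not tested.

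**Figure D5:**
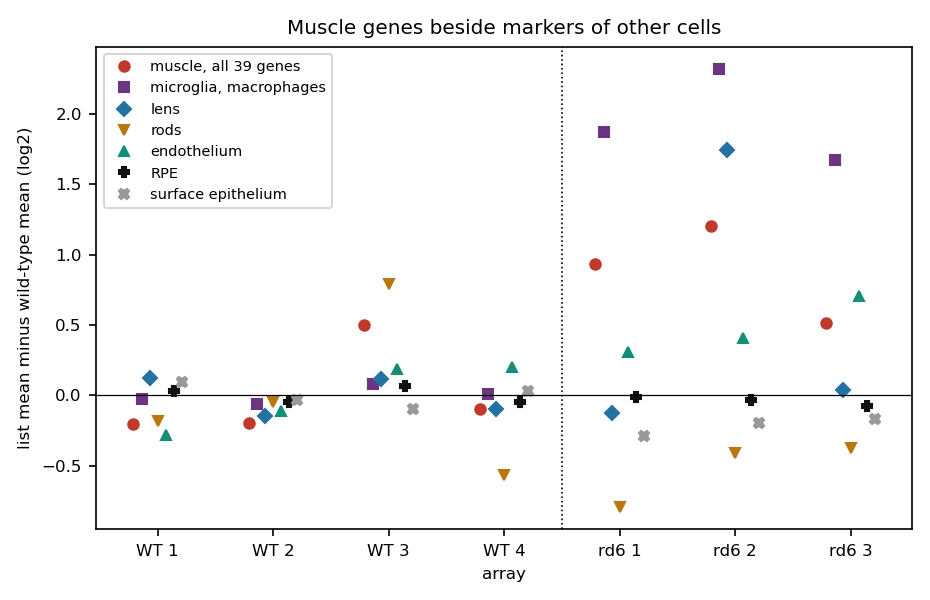
Mean log2 signal of the 39 muscle genes and of 6 marker lists on each array (horizontal axis), minus the list's wild-type mean (vertical axis, log2 units). Muscle is raised on wild-type replicate 3 and on all Mfrp rd6 arrays. The microglia and macrophage list and, by less, the endothelial list are raised on all Mfrp rd6 arrays. Lens is raised on Mfrp rd6 replicate 2, and rods on wild-type replicate 3.

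How many of the genes passed also moved with the processing. The count was 4 with quantile normalization (1.42% of all genes called higher), 15 with arrays centred on their medians (1.43%), 23 with array weights (2.03%) and 4 with a variance trend and robust moderation (1.82%). Those last 4 were Tnni2, Mylpf, Xirp2 and Ryr1, and 0 of the 6 calls given first held in that fit, with adjusted p from 0.0591 (Myot) to 0.144 (Atp2a1). Among genes with a mean of at least 6 it was 14 of 28 (2.01%), and among genes above the median level 11 of 14 (2.15%). Both filters used the mean over all 7 arrays, so genes that are high in Mfrp rd6 pass them more easily. Myh1, Myoz1 and Myot, which are among the 14, had wild-type means of 5.605, 5.94 and 5.89. Other choices of probe set left the count at 6 (1.34% and 1.33%). With the replicate block it was 0 (0.833%), and with both wild-type replicate 3 and replicate 2 of Mfrp rd6 left out it was 15 (0.777%).

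Under the growth protocol, leaving out Mfrp rd6 replicate 1 compares samples of equal age. In that fit 0 of the 39 genes passed, against 0.762% of all genes called higher, 39 had a positive change (46.7% of all genes), and the median change was 0.82. At an unadjusted p under 0.05, 26 were higher, as in 5.82% of all genes.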

How the data were processed

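Total RNA from 7 RPE samples was measured on Affymetrix arrays, 1 per sample. The deposited log2 values came from RMA in Affymetrix Expression Console, per the submitters' processing notes. RMA corrects background, equalises the arrays and summarises the probes of a set, and no version was stated. Changes of dim probe sets are understated on this log2 scale. Values lay between 1.91 and 13.81. Scanner values and detection calls were not used here.

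Gene names are those of the platform's annotation and may be outdated. Of 35556 probe sets, 21789 had 1 symbol, 1621 several and 12146 none, and the Entrez identifier of 21698 was found in the RefSeq table (GRCm38.p6). The probe set with the highest mean was used for each of 19938 genes, and none of the 39 muscle genes had more than 1. The difference between Mfrp rd6 and wild type was fitted for every gene with limma 3.58.1 in R 4.3.3 (5 residual degrees of freedom). P-values were adjusted by Benjamini-Hochberg over all genes, with a threshold of 0.05. The procedure was tested on simulated data with independent noise for each gene, which does not cover variation that genes share on an array. Precision is limited by the number of arrays (median standard error 0.09). The labels do not say whether replicate numbers pair the samples, and the main fit did not pair them. Python 3.11.15, pandas 2.3.3 and matplotlib 3.10.9 made tables and figures.

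The genes and lists were chosen with earlier results of these data known, so no p-value is given for a list or a mean over it. All 39 genes are named. Each other muscle list is represented by up to 4 changed genes, taken by size of change, or by its 2 brightest where none changed. Each list of another cell type is represented in the same way by up to 2 changed genes or by 1 bright one. The 17 alternatives were normalizations, filters on dim genes, variance models, choice of probe set, the replicate block and left-out arrays.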

Additional observations from a re-analysis of the deposited data

Results flagged for a closer look

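Among the results tested in the 4 wild-type arrays, 11 of 68 had 1 array far from the others. The nominal chance rate of this comparison is about 5%. Its share over all genes was not computed, so the count is a description and no excess is claimed. In 10 of the 11 the array far from the others was wild-type replicate 3, on the high side. For single muscle genes it read 6.57 for Mylpf, 6.73 for Mybpc2, 8.97 for Acta1, 6.91 for Ttn, 6.97 for Neb and 8.63 for Eno3. The same array was far above the others for the light chain Myl4 (8.27), for the mean of the genes of all fibre types (7.08), for the mean of the metabolic genes (8.33) and for the mean of all 39 genes (7.08). These results share genes and are not independent of each other. For the slow troponin I gene Tnni1, wild-type replicate 2 was far below the others, at 5.97. The Mfrp rd6 group, with 3 arrays, was too small for this comparison.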

How the results depend on the processing

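The number of the 39 genes called higher moved most: from 6 to 15 with arrays centred on their medians, 14 with genes of a mean of at least 6, 11 with genes above the median level, 23 with array weights and 15 with both wild-type replicate 3 and replicate 2 of Mfrp rd6 left out. Leaving out 1 array gave 0 to 18 calls. Same-numbered deviations correlated at -0.30, -0.07 and 0.04, and differently numbered ones at -0.27 to 0.37. With so few arrays this cannot settle whether replicate numbers pair the samples. The fit with the replicate block, which drops wild-type replicate 4, called 0. The median change became 1.57 above the median level, and the mean difference of the slow genes 0.31 at a mean of at least 6, where fewer genes are left. Both filters used all 7 arrays, so genes that are high in Mfrp rd6 pass them more easily. No extraocular gene had a mean of at least 6, so that filter gave no value for them. The other 134 values for groups stayed within the replicate spread or, for counts, within 1.5 times, and among named genes 789 kept direction and call, 96 lost the call and 79 gained it.

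Signs turned only for differences near 0 that did not pass. With quantile normalization the differences were -0.015 for Myh7, -0.0055 for Myl2 and -0.044 for Krt5, and with centred arrays -0.0083, -0.014 and -0.0042. Array weights gave -0.0079 for Myh7, -0.011 for Myl2 and 0.046 for Acta2. The replicate block gave -0.0067 for Myl2 and 0.013 for Casq2. With wild-type replicate 3 and replicate 2 of Mfrp rd6 both left out, Myh7 was at -0.0067 and Krt5 at -0.005. Leaving out 1 array gave -0.1075 to 0.0475 for Tnnc1, -0.0425 to 0.0975 for Myh7, -0.045 to 0.045 for Myl2, -0.02 to 0.13 for Myl3 and -0.12 to 0.045 for Casq2. It gave -0.0125 to 0.1475 for Myh8, -0.045 to 0.135 for Myh13, -0.09 to 0.05 for Acta2, -0.0675 to 0.2525 for Plin1 and -0.0033 to 0.02 for Krt5. The cause of these shifts was not tested. With 7 arrays, small changes of dim genes could not be detected.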
